A study of Mus musculus with 576 samples.

Results

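The chemokine genes Cxcl9 (ENSMUSG00000029417), Cxcl10 (ENSMUSG00000034855) and Cxcl11 (ENSMUSG00000060183) were followed in single mouse haematopoietic stem cells (HSCs) after lipopolysaccharide (LPS). They are the 3 ligands of the receptor CXCR3 and were found by gene ID, 3 of 46078 genes in the deposited tables. Each library held the RNA of 1 bone marrow cell sorted as CD150+CD48-cKit+Sca1+, the gate that the labels abbreviate SLAM_KSL and describe as long-term HSC. LPS, a component of the outer membrane of Gram-negative bacteria, is sensed through Toll-like receptor 4. The groups were LPS p27 high, LPS p27 low and LPS p27 negative cells, and control p27 high, control p27 low and control p27 negative cells, with 96 wells each. p27 is an inhibitor of cyclin-dependent kinases linked to G0, in which cells rest without cycling, and the labels give its marker class without saying how the classes were cut. LPS dose, time after LPS, whether LPS was given to animals or cells, number of animals, strain, age and sex are absent from the labels used here. Each group therefore counted as 1 sample, no difference between groups was tested, and intervals cover counting error only.

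CXCL9, CXCL10 and CXCL11 are secreted proteins that draw activated T cells and natural killer cells to a tissue through CXCR3. Cxcl10 and Cxcl11 are classic targets of type I interferon as well as interferon gamma and of Toll-like receptor signalling, whereas Cxcl9 is known chiefly as a target of interferon gamma. In bone marrow, interferon and Toll-like receptor signals are known to act on HSCs directly and through neighbouring cells.

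The 3 genes lie side by side on the minus strand of chromosome 5 in mm10. Cxcl9 spans chr5:92321347-92328079, Cxcl10 chr5:92346638-92348889 and Cxcl11 chr5:92359544-92365485, and the cluster covers 44.1 kb. GENCODE M21 calls Cxcl9 and Cxcl10 protein-coding and Cxcl11 a polymorphic pseudogene, so a Cxcl11 read shows transcript and not a working ligand. The promoters of Cxcl9 and Cxcl10 are shown because both genes, like the interferon targets below, were higher with LPS, and their known regulators bind close to the start. The sequences are the 250 bases before the RefSeq start in GRCm38.p6 on the minus strand, chr5:92328080-92328329 for Cxcl9 and chr5:92348890-92349139 for Cxcl10, and capitals mark motif matches on either strand.
Cxcl9: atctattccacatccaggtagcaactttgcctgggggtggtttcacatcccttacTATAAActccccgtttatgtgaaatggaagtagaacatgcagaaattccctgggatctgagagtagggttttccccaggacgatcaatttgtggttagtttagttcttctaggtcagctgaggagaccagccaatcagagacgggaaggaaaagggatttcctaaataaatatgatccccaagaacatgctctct
Cxcl10: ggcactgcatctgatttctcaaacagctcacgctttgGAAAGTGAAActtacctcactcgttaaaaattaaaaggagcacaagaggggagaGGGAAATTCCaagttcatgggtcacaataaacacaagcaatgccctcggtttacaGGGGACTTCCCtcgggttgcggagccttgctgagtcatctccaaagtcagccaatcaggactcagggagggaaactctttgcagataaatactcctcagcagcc
In the Cxcl10 window the interferon-stimulated response element core (GAAA, any 2 bases, GAAA) matched at bases -213 to -204, counted back from the start. An NF-kB consensus matched there at -159 to -150, at -104 to -95 and at -103 to -94, the last 2 overlapping and the last on both strands. In the Cxcl9 window TATAAA matched at -195 to -190, while neither window held the letters TTCNNNGAA of a gamma-activated site. Of 32851 RefSeq promoters of this length, 2.98% held that core, 7.02% TTCNNNGAA, 7.25% the NF-kB consensus and 12.4% TATAAA. A match is a description of letters and not a shown binding site. Only exact matches to these patterns were sought, so a window without a match may still hold a site. The promoter of Cxcl11 was not analysed here.

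Cells with at least 50000 gene reads were kept, which left 93, 90 and 92 LPS cells and 84, 93 and 95 control cells of the p27 high, p27 low and p27 negative class. Below, 3 values given for LPS or control cells stand in that order of classes. The kept cells held 52163 to 1942773 gene reads, with group medians of 284633, 287584 and 439918 in LPS cells and 229696, 224003 and 390369 in control cells. All 8 HSC markers had reads in each group, and their summed level was 2816, 2068 and 1383 CPM (reads per 1000000 gene reads) in LPS cells and 2598, 1842 and 1236 CPM in control cells. Without Ly6a, which encodes Sca1 and is known to respond to interferon, the other 7 summed to 1596, 978 and 928 CPM in LPS cells and 2267, 1719.9 and 1186 CPM in control cells, lower with LPS in each class. Each group mixed cells with Xist, the noncoding RNA of the inactive X chromosome, and cells with the Y-linked genes Ddx3y, Eif2s3y, Kdm5d and Uty. With a minimum of 30 CPM, a split chosen after seeing the data, 124 LPS cells were Xist cells, 118 were Y cells, 31 had neither and 2 had both. In control the numbers were 164, 76, 32 and 0. Xist and Y-linked transcripts mark female and male cells, which come from different animals, and the labels name no animals. Cell sex, animal and any difference in LPS exposure between animals therefore cannot be told apart, in the comparison of Xist with Y cells and in each ratio over all cells of a group. Xist cells made up 31.2%, 54.4% and 50% of the LPS classes and 52.4%, 64.5% and 63.2% of the control classes. Because levels differed strongly along this split, the results on the 3 members and the list counts are also given within Xist cells and within Y cells.

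Cxcl10 became one of the most abundant transcripts of the LPS cells. Per cell it ranged from 9.92 to 36162 CPM around a median of 166 CPM in LPS p27 high cells. In LPS p27 low cells it ranged from 33 to 54706 CPM with a median of 3141 CPM, and in LPS p27 negative cells from 13.6 to 41019.5 CPM with a median of 1951 CPM. In control cells the median was 0 in every class, and only 4 of 272 cells had a read. The groups overlapped through those 4 cells and the low LPS cells. The 4 were control p27 high cell 70 with 33 reads, control p27 low cell 40 with 102, and control p27 negative cells 17 and 61 with 72 and 43 reads, or 78.3 to 199 CPM, and none of them had a read of Cxcl9 or Cxcl11.

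Summed over cells, Cxcl10 reached 5745 CPM (95% Poisson interval 5719 to 5770.5) in LPS p27 high cells, against 1.52 CPM (1.05 to 2.13) in control p27 high cells. It reached 7265 CPM (7234 to 7297) in LPS p27 low cells and 3.35 CPM (2.73 to 4.07) in control p27 low cells. In LPS p27 negative cells it stood at 7749.9 CPM (7725 to 7775), and in control p27 negative cells at 2.77 CPM (2.28 to 3.32). These levels were 0.574%, 0.727% and 0.775% of all gene reads of the LPS classes and placed Cxcl10 8th, 5th and 5th among all genes there. The ratio of LPS to control was 3780.1 (2692 to 5492), 2168 (1786 to 2659) and 2802 (2335 to 3394) in the 3 p27 classes. On the scale of log2(CPM + 1) the differences were 11.15, 10.71 and 11.01, and among the genes with at least 1 CPM in either group they ranked 1st, 2nd and 1st.

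Cxcl11 followed at a lower level. Its per-cell values ran from 0 to 18563 CPM with a median of 19.8 in LPS p27 high cells, from 0 to 21938 CPM with a median of 69.7 in LPS p27 low cells and from 0 to 13759 CPM with a median of 43.9 in LPS p27 negative cells. The summed level was 1047 CPM (1036 to 1058), 1399 CPM (1385 to 1413) and 1066 CPM (1056 to 1075) in the LPS classes. Control p27 high cells had no read, control p27 low cells 4 reads (0.131 CPM) and control p27 negative cells 1 read (0.0240 CPM). Against a floor of 3 counts over the control group, Cxcl11 was at least 7576-fold higher in LPS p27 high cells. For p27 low cells the ratio was 10647 (4158 to 39079) and for p27 negative cells 44309 (7952 to 1750128), where the few control reads leave it poorly bounded. The differences of log2(CPM + 1) were 9.85, 10.27 and 10.02.

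Cxcl9 was the lowest of the 3 and differed most between p27 classes. Per cell it ranged from 0 to 3997 CPM with a median of 8.25 in LPS p27 high cells, from 0 to 18958 CPM with a median of 10.8 in LPS p27 low cells and from 0 to 18668 CPM with a median of 7.43 in LPS p27 negative cells. No control cell had a read. The summed level of 101 CPM (97.5 to 104) in LPS p27 high cells was at least 730.2-fold above the control floor. The levels of 724 CPM (714 to 734) in LPS p27 low and 564 CPM (557 to 571) in LPS p27 negative cells were at least 7347-fold and 7818-fold above theirs. The differences of log2(CPM + 1) were 6.48, 9.37 and 9.04, with control at the floor. A few cells carried the p27 high value: its top 3 cells held 85.7% of the Cxcl9 reads, and the share was 46.3% in p27 low and 47.9% in p27 negative cells.

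All 3 genes were thus higher with LPS by at least 1 on the log2 scale in each class, where 11.5%, 11.7% and 9.08% of all genes with at least 1 CPM in either group passed the same mark in the p27 high, low and negative class, and 15.5%, 19.2% and 12.9% were lower by as much. The median difference over all those genes was -0.09, -0.16 and -0.12. Per kb of exon, the order was Cxcl10 above Cxcl11 above Cxcl9 in each LPS class. Cxcl10 had 2551, 3226 and 3441 CPM per kb in the LPS p27 high, low and negative classes. Cxcl11 reached 276, 369 and 281 CPM per kb, and Cxcl9 33.4, 240.1 and 187 CPM per kb. Within single cells the order hardly changed, since Cxcl11 exceeded Cxcl10 per kb in 1 LPS p27 low cell and Cxcl9 exceeded it in 0 of the 275 LPS cells.

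**Figure D1:**
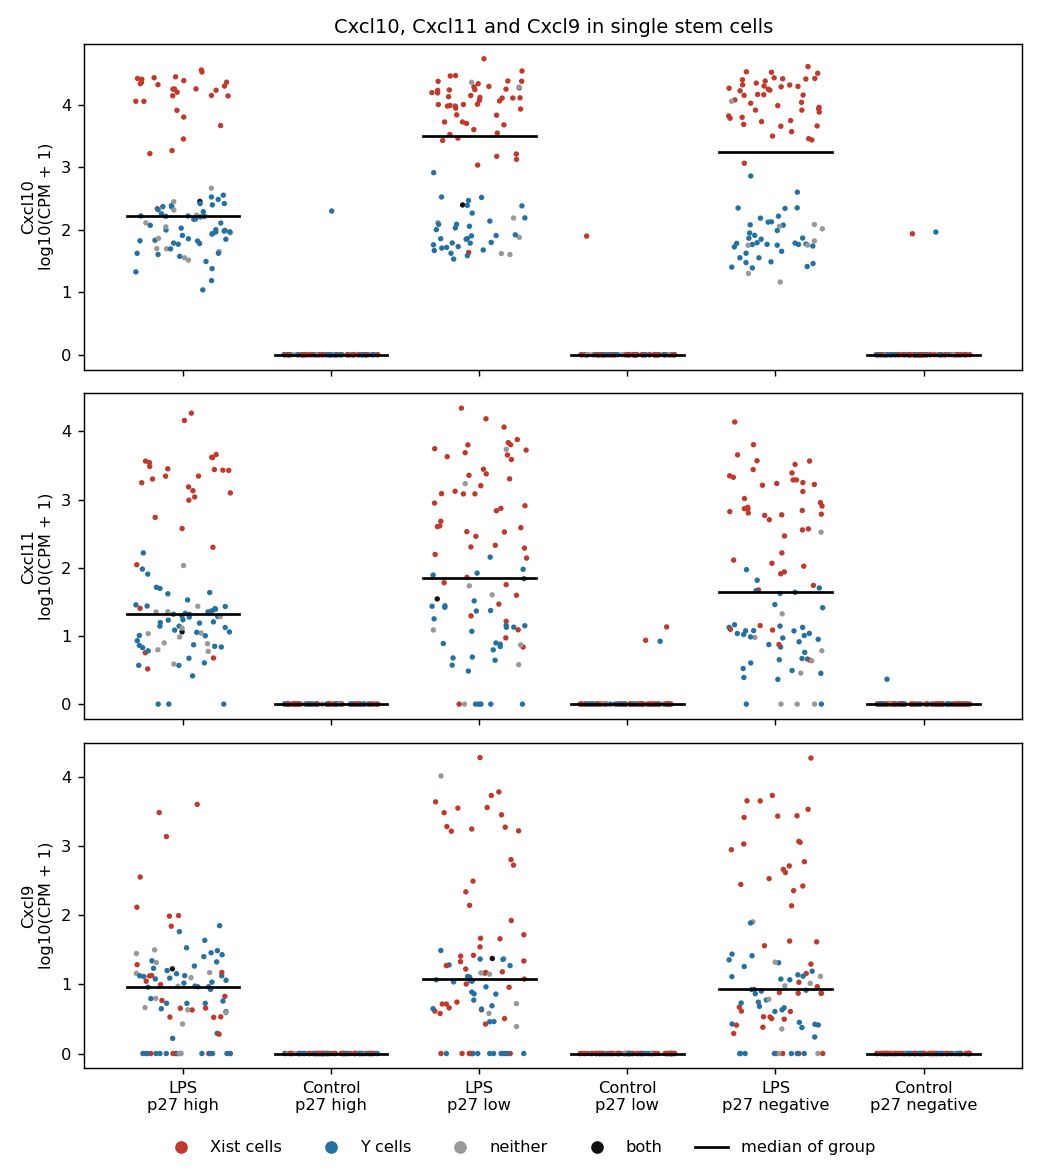
Level of Cxcl10, Cxcl11 and Cxcl9 in each kept cell as log10(CPM + 1), LPS beside control in each p27 class, with the group median as a line and colours for Xist cells, Y cells, cells with neither and cells with both. The LPS cells fall into a high cloud made mainly of Xist cells and a low cloud made mainly of Y cells, and the group median of Cxcl10 (166 CPM in LPS p27 high cells, 3141 and 1951 CPM in LPS p27 low and negative cells) shows which cloud is larger.

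The LPS cells formed separate sets of high and low Cxcl10. At least 1000 Cxcl10 reads stood in 113 of the 275 LPS cells, which held 98.5% of the reads, while 142 cells had 10 to 99 reads and 15 lay between. Of the 124 Xist cells 122 (98.4%, exact 95% interval 94.3 to 99.8) had at least 100 Cxcl10 reads, against 2 of the 118 Y cells (1.69%, 0.206 to 5.99) with 225 and 239 reads. The exceptions among Xist cells were LPS p27 high cell 27 with 58 reads and LPS p27 low cell 54 with 15 reads. Of the 31 cells with neither, 4 had at least 100 reads, and of the 2 with both 0 did. For the cells called Xist or Y the cut mattered little: with 10 CPM 116 of 119 Xist cells and 2 of 116 Y cells had at least 100 Cxcl10 reads, and with 100 CPM 105 of 106 and 1 of 97. It moved more cells out of the split, and some of these were high. With 10 CPM 8 of 22 cells with both had at least 100 Cxcl10 reads, and with 100 CPM 22 of 72 cells with neither. Xist and Y cells had like median depths, 324211 and 300956 gene reads, and like numbers of genes with a read, 5949 and 5903. In p27 high cells the median depths were 337047 and 265568 gene reads. The median spike-in share was 2.80% in LPS Xist cells and 3.84% in LPS Y cells and lower in Xist cells in each class, and its part in the result was not tested.

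**Figure D2:**
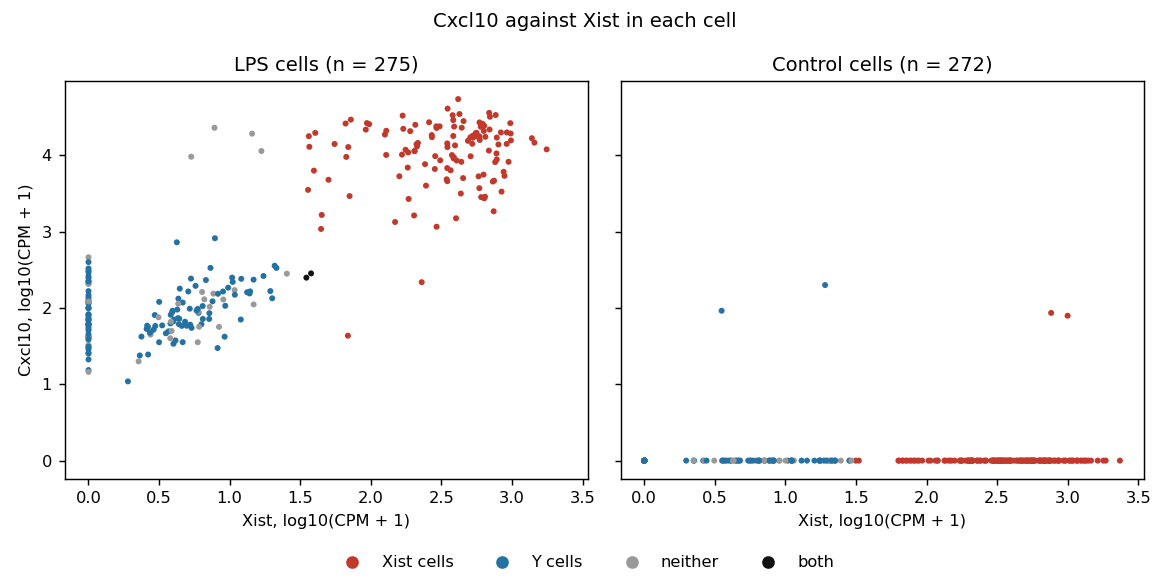
Cxcl10 against Xist in each kept cell, both as log10(CPM + 1), for 275 LPS cells and 272 control cells. In LPS cells 122 of 124 Xist cells lie in the upper cloud of at least 100 Cxcl10 reads, and 2 of 118 Y cells reach that number, while 4 control cells have any Cxcl10 read.

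Within Xist cells the LPS levels were higher still. Cxcl10 ran from 42.4 to 54706 CPM with a median of 13710.5 in LPS Xist cells, and its sum was 16427, 12551 and 13802 CPM in the 3 p27 classes. Control Xist cells had 0, 4.73 and 1.61 CPM. The first pair gave an at least 59775-fold difference, and the others ratios of 2655 (2187 to 3257) and 8598 (6383 to 11881). Cxcl11 had 2995, 2449 and 1907 CPM in LPS Xist cells, against 0, 2 and 0 reads in control Xist cells. Cxcl9 had 278, 1168 and 1011 CPM in LPS Xist cells and no read in control Xist cells, which put LPS at least 1010.3-fold, 8402-fold and 9029-fold higher. Again 3 of 3 genes passed the log2 mark of 1 in each class, where 14.6%, 13.5% and 11.9% of all genes did and 35.8%, 30.6% and 24.1% were lower by as much, and the median over all genes was -0.46, -0.34 and -0.28.

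In Y cells the 3 genes had reads at a small and even level. Whether those reads came from the cell itself was not tested. Cxcl10 ran from 9.92 to 821 CPM with a median of 80.4 in LPS Y cells, and summed to 88.4, 110.0 and 76.9 CPM in the 3 p27 classes against 3.99, 0 and 6.86 CPM in control Y cells. The ratio was 22.1 (15.7 to 32.3) and 11.2 (8.84 to 14.4) in p27 high and negative cells and at least 176 in p27 low cells. Cxcl11 had 16.2, 16.6 and 14.1 CPM and Cxcl9 7.28, 5.97 and 5.94 CPM in LPS Y cells. The count was 3 of 3 genes higher in each class here too, against 20.7%, 22.2% and 17.9% of all genes higher and 16.8%, 19.7% and 14.9% lower. Set against Y cells of the same LPS class, Xist cells had 186, 114 and 179 times the Cxcl10 level, 185, 147 and 135 times the Cxcl11 level and 38.1, 196 and 170.3 times the Cxcl9 level. These 3 genes passed the mark of 1 in each class, as did 14.6%, 17.2% and 13.1% of all genes.

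The reads of Y cells had 2 measured features. First, over all LPS classes reads per Y cell came to a small share of reads per Xist cell. It was 0.551% (0.534 to 0.568) for Cxcl10, 0.587% (0.544 to 0.632) for Cxcl11 and 0.625% (0.554 to 0.701) for Cxcl9. Xist itself came to 0.533% (0.445 to 0.634). The 4 Y-linked genes in Xist cells came to 0.832% (0.692 to 0.993) of their reads in Y cells. The cut at 30 CPM caps the shares of Xist and the Y-linked genes, so these cannot serve as a yardstick for the chemokines. Within the p27 high, low and negative class the share was 0.463%, 0.888% and 0.455% for Cxcl10 and 0.465%, 0.687% and 0.604% for Cxcl11. For Xist it was 0.568%, 1.03% and 0.365%, and for Cxcl9 2.26%, 0.518% and 0.479%. Second, the number of reads was similar in the 3 classes. Y cells held 30.2, 34.6 and 37.1 Cxcl10 reads each in LPS p27 high, low and negative cells, and the rank correlation of Cxcl10 reads with gene reads was 0.09, 0.15 and 0.29 over 49, 32 and 37 Y cells. Cxcl9 stood at 2.49, 1.88 and 2.86 reads per Y cell, while Xist cells held 110.3, 362 and 598, so that the share was 2.26% in p27 high cells. Whether such reads came from the cell itself or from other libraries of the same run was not tested. For that reason a cell was called positive below at 100 reads as well as at 5.

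The p27 classes differed mainly in Cxcl9. Over all LPS cells Cxcl9 was lower in p27 high cells, with log2 differences of -2.47 against p27 negative and -2.83 against p27 low cells. It was the 1 member of 3 past the mark of 1 in either comparison, where 10.2% and 9.53% of all genes were lower and 15.2% and 15.6% higher by 1 or more. Cxcl10 differed by -0.43 and -0.34 and Cxcl11 by -0.03 and -0.42 in the same comparisons. Scaling by spike-in reads put Cxcl10 at -1.24 and Cxcl9 at -3.28 between p27 high and p27 negative cells. Between p27 low and negative cells the differences were 0.36 for Cxcl9, -0.09 for Cxcl10 and 0.39 for Cxcl11, so 0 of 3 passed, against 10.7% of genes higher and 12.8% lower. Within Xist cells Cxcl9 stayed lower in p27 high cells, at -1.86 against p27 negative and -2.07 against p27 low cells, where 23.5% and 20.5% of all genes were lower and 15.6% and 16% higher by 1 or more. Cxcl10 and Cxcl11 turned to slightly higher in p27 high Xist cells, at 0.25 and 0.65 against p27 negative cells and 0.39 and 0.29 against p27 low cells. The Cxcl11 sums leaned on 1 cell each, which held 26.5%, 14.6% and 39.6% of the reads in p27 high, low and negative Xist cells. Between p27 low and p27 negative Xist cells the differences were 0.21 for Cxcl9, -0.14 for Cxcl10 and 0.36 for Cxcl11, and 0 of 3 passed the mark that 14.2% and 18% of genes passed upward and downward.

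The Cxcl9 difference came with fewer cells of high Cxcl9. At least 100 Cxcl9 reads were present in 3 of 93 LPS p27 high cells (3.23%, 0.670 to 9.14), 17 of 90 LPS p27 low cells (18.9%, 11.4 to 28.5) and 18 of 92 LPS p27 negative cells (19.6%, 12 to 29.1). Among Xist cells the same counts were 3 of 29 (10.3%, 2.19 to 27.4), 16 of 49 (32.7%, 19.9 to 47.5) and 18 of 46 (39.1%, 25.1 to 54.6). For Cxcl10 the share of all LPS cells with at least 100 reads was 30.1%, 57.8% and 52.2%, close to the share of Xist cells in each class. For Cxcl11 it was 23.7%, 34.4% and 33.7% of all LPS cells, and 75.9%, 59.2% and 67.4% of Xist cells. The Xist share differed between the p27 classes, so class differences over all LPS cells and the mixture of Xist and Y cells cannot be told apart without that split.

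Counting any read gave a different picture of the same cells. After every cell was thinned to 50000 reads, Cxcl10 had a read in 98.9%, 95.6% and 96.7% of LPS p27 high, low and negative cells and in 1.19%, 1.08% and 2.11% of control cells. Cxcl11 had one in 63.4%, 72.2% and 68.5% of LPS cells and in 0%, 3.23% and 1.05% of control cells. Cxcl9 had one in 34.4%, 48.9% and 45.7% of LPS cells and in 0 of 84, 93 and 95 control cells, with exact 95% upper bounds of 4.30%, 3.89% and 3.81%. These shares include the few reads of Y cells.

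In the same cell, Cxcl9 and Cxcl11 were found together with Cxcl10. At 5 reads or more, all 3 genes were present in 74 of 275 LPS cells (26.9%), Cxcl10 with Cxcl11 in 97 (35.3%), Cxcl10 with Cxcl9 in 12 (4.36%) and Cxcl10 alone in 91 (33.1%). At this cut Cxcl10 stood alone in 9 of the 124 Xist cells (7.26%). Among Y cells it did so in 26 of 49, 18 of 32 and 18 of 37 cells of the p27 high, low and negative class. Whether the few reads of Y cells came from the cell itself was not tested. No LPS cell had Cxcl9 or Cxcl11 without Cxcl10 at 5 reads, and 1 had none of the 3. With 274 of 275 LPS cells at 5 Cxcl10 reads or more, almost no cell could have shown it. At 100 reads within the 124 LPS Xist cells, Cxcl10 was present in 122, Cxcl11 in 82 (66.1%) and Cxcl9 in 37 (29.8%). All 3 were together in 28 (22.6%, 15.6 to 31), Cxcl10 with Cxcl11 in 54 (43.5%), Cxcl10 with Cxcl9 in 9 (7.26%) and Cxcl10 alone in 31 (25%). Cxcl9 or Cxcl11 without Cxcl10 was found in 0 of 124 cells (exact upper bound 2.93%). Since 122 of the 124 had Cxcl10, this count was nearly fixed and says little on whether the genes go together. Cxcl11 was present in 28 of the 37 cells with Cxcl9 (75.7%, 58.8 to 88.2) and in 54 of the 87 without it (62.1%, 51 to 72.3), and these intervals overlap.

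Single cells showed that Cxcl9 and Cxcl11 could each be high without the other. LPS p27 high cell 43 had 16614 Cxcl10 reads, 9159 Cxcl11 reads and no Cxcl9 read. LPS p27 negative cell 6 likewise had 15489, 6904 and 0. In the other direction, LPS p27 high cell 54 had 4993 Cxcl10 reads, 599 Cxcl9 reads and 1 Cxcl11 read. LPS p27 negative cell 37 was high in all, with 12311 Cxcl10, 20552 Cxcl11 and 4028 Cxcl9 reads, and held the largest Cxcl11 count of its class. In LPS p27 low cell 88 Cxcl9 had 5053 reads, more than the 4622 of Cxcl10.

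**Figure D3:**
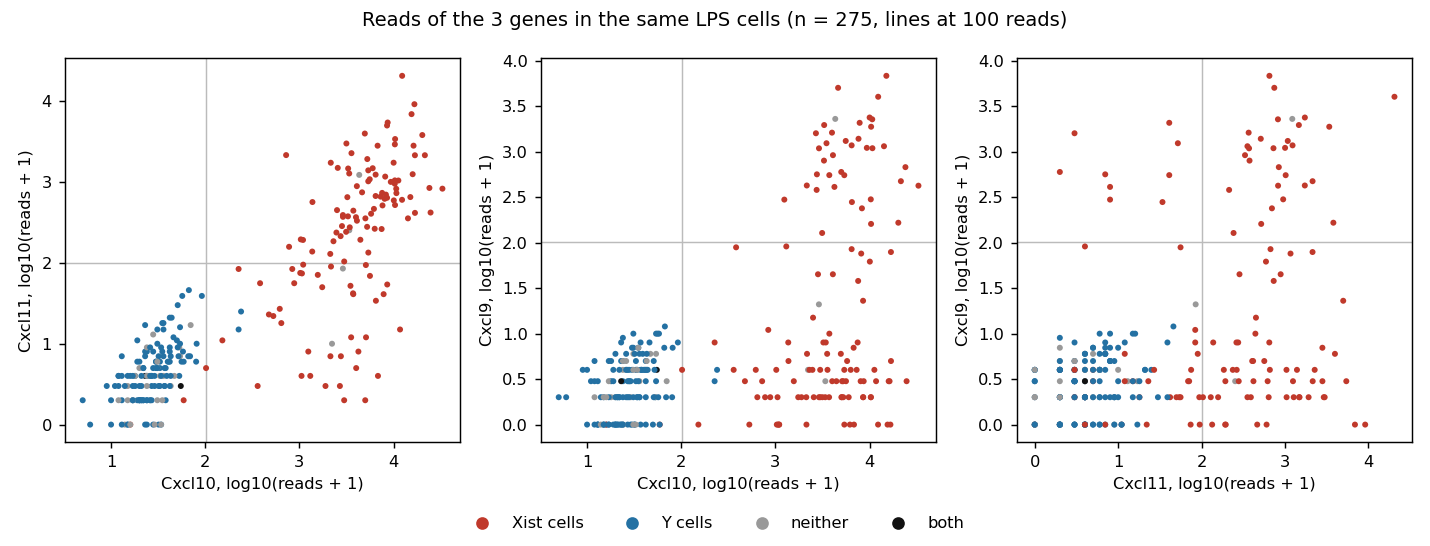
Reads of each pair of the 3 genes in the same LPS cell, as log10(reads + 1), with lines at 100 reads and colours as in the plot of levels per cell. No cell lies above 100 Cxcl9 or Cxcl11 reads and below 100 Cxcl10 reads, whereas Cxcl9 and Cxcl11 also occur without each other (28 of 124 Xist cells had all 3 at 100 reads or more). Cxcl10 reached 100 reads in 122 of the 124 Xist cells, so hardly any Xist cell could lie there.

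The rank correlation across cells of CPM, a description over cells that share libraries and treatment, was 0.78, 0.82 and 0.85 for Cxcl10 and Cxcl11 in the 93, 90 and 92 LPS p27 high, low and negative cells. Within the 29, 49 and 46 Xist cells it was 0.59, 0.54 and 0.46. For Cxcl9 and Cxcl10 it was 0.29, 0.53 and 0.52 over all LPS cells and 0.32, 0.22 and 0.19 within Xist cells. For Cxcl9 and Cxcl11 the values were 0.28, 0.49 and 0.44, and 0.22, 0.27 and 0.12 within Xist cells.

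The genes most like each member were ranked by the mean of the 3 within-class rank correlations, over 8681 genes with a read in at least 20% of cells of each LPS class. For Cxcl10 they were Ifit1 (0.87), Iigp1 (0.84), Rsad2 (0.83), Gbp3 (0.82) and Cxcl11 (0.82), of which Ifit1, Iigp1, Rsad2 and Gbp3 stand on the list of interferon targets described below. For Cxcl11 they were Cxcl10 (0.82), Ifit1 (0.76), Oasl1 (0.74), Serpina3f (0.73) and Rsad2 (0.72). For Cxcl9 they were Cxcl10 (0.45), Iigp1 (0.42), Serpina3f (0.41), Cxcl11 (0.41) and Ifit1 (0.37). Those lists partly follow the split into Xist and Y cells. Within Xist cells, over 8275 genes, the first 5 for Cxcl10 were Ifit3 (0.58), Tgtp1 (0.54), Cxcl11 (0.53), Tnfsf10 (0.52) and Iigp1 (0.48), and for Cxcl11 Cxcl10 (0.53), Tgtp1 (0.49), Gbp7 (0.45), Tnfsf10 (0.43) and Irf1 (0.43). Cxcl9 then stood nearest Serpina3g (0.41), Ncln (0.39), Serpina3n (0.39), Fmc1 (0.35) and Copb1 (0.35), with Cxcl10 in place 132 and Cxcl11 in place 339. The means of Ncln, Fmc1 and Copb1 leaned on p27 high Xist cells. Ncln had 0.79, 0.13 and 0.26, Fmc1 0.60, 0.29 and 0.17 and Copb1 0.56, 0.21 and 0.29 in p27 high, low and negative Xist cells. Of the first 5 genes, 2 for Cxcl10, 1 for Cxcl11 and 0 for Cxcl9 were shared between all LPS cells and Xist cells.

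Among the inducing cytokines, the listed interferon genes and Il12b were absent or nearly so in the sorted cells themselves. Ifng, Ifna4 and Il12b had no read in any group, and Ifnb1, which encodes interferon beta, stood at 0.252 CPM in LPS p27 low cells alone. Of the 9 listed cytokine genes, 5, 4 and 5 had at least 1 CPM in the 3 p27 classes, and 3, 3 and 4 of these were higher with LPS, where 11.5%, 11.7% and 9.08% of all genes were. In Xist cells 3 of 4, 3 of 4 and 4 of 5 were higher, where 14.6%, 13.5% and 11.9% of all genes were. In Y cells 3, 2 and 2 of 4 were higher, where 20.7%, 22.2% and 17.9% of all genes were. Il27, a cytokine of the interleukin 12 family, had 31.7, 15.1 and 11.7 CPM in LPS cells and 1.15, 1.05 and 0.385 CPM in control cells. In p27 negative Y cells it went the other way, with 0.0560 CPM in LPS and 1.53 CPM in control cells. That log2 difference of -1.26 was past the mark downward, as were 14.9% of all genes there. Il1b, which encodes interleukin 1 beta, had 10.2, 33.7 and 90.6 CPM in LPS cells and 0.184, 8.84 and 4.26 CPM in control cells. Tnf, which encodes tumour necrosis factor, had 12, 9.94 and 27.4 CPM in LPS cells and 6.49, 6.80 and 3.08 CPM in control cells. Il18, which encodes interleukin 18, had 60.1, 33.2 and 10.4 CPM in LPS cells and 47.3, 15.8 and 6.90 CPM in control cells.

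Of the 11 listed receptors and adaptors, 2, 1 and 1 were higher with LPS and 2, 1 and 2 lower in the 3 p27 classes, near the shares over all genes of 11.5%, 11.7% and 9.08% higher and 15.5%, 19.2% and 12.9% lower. In Xist cells 2, 3 and 1 were higher and 3, 2 and 3 lower, where 14.6%, 13.5% and 11.9% of all genes were higher and 35.8%, 30.6% and 24.1% lower. In Y cells 4, 5 and 3 were higher and 2, 2 and 1 lower, where 20.7%, 22.2% and 17.9% of all genes were higher and 16.8%, 19.7% and 14.9% lower. Tlr4, the LPS receptor, had 32.7, 2.45 and 10.8 CPM in LPS cells and 12.2, 26.5 and 11.5 CPM in control cells. Myd88, its adaptor, had 153, 151 and 139.8 CPM in LPS cells and 60.5, 76.8 and 86.9 CPM in control cells. Ifngr2, a chain of the interferon gamma receptor, had 74.1, 59.2 and 39.6 CPM in LPS cells and 41.3, 11.2 and 17.9 CPM in control cells. In p27 high cells Ifngr2 went opposite ways, with 161 CPM in LPS Xist cells against 15.1 CPM in control Xist cells, and 35 CPM in LPS Y cells against 88.5 CPM in control Y cells.

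Of 14 listed transcription factors and kinases downstream of these receptors, 6, 8 and 8 were higher with LPS and 0, 0 and 1 lower in the 3 p27 classes, with medians of 0.83, 1.33 and 1.34. Over all genes the shares were 11.5%, 11.7% and 9.08% higher and 15.5%, 19.2% and 12.9% lower. The lower one was Irf8, a factor of myeloid cells, at -2.13 in p27 negative cells, named after its value was seen. Only 4 of the 95 control p27 negative cells had at least 5 Irf8 reads. The difference was -0.92 in Xist cells and -1.51 in Y cells of that class. In Xist cells 10, 9 and 8 were higher and 0 lower, where 14.6%, 13.5% and 11.9% of all genes were higher and 35.8%, 30.6% and 24.1% lower. In Y cells 2, 2 and 1 were higher and 2, 1 and 4 lower, where 20.7%, 22.2% and 17.9% of all genes were higher and 16.8%, 19.7% and 14.9% lower. Irf7, a factor that amplifies type I interferon, had 452, 499.7 and 413 CPM in LPS cells and 17.3, 34.3 and 18.2 CPM in control cells. Irf1, a factor that binds the Cxcl9 and Cxcl10 promoters in other cells, had 1198, 1217 and 1212 CPM in LPS cells and 243, 206 and 179 CPM in control cells. Relb, an NF-kB subunit, had 169.9, 170.0 and 257 CPM in LPS cells and 16, 27.2 and 8.22 CPM in control cells.

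Of 9 listed brakes of these pathways, 5, 6 and 6 were higher with LPS and 0 lower, with medians of 1.0, 2.07 and 1.95, where 11.5%, 11.7% and 9.08% of all genes were higher. In Xist cells 6, 6 and 6 were higher and 0 lower, where 14.6%, 13.5% and 11.9% of all genes were higher and 35.8%, 30.6% and 24.1% lower. In Y cells 1, 2 and 0 were higher and 1, 1 and 2 lower, where 20.7%, 22.2% and 17.9% of all genes were higher and 16.8%, 19.7% and 14.9% lower. Usp18, which dampens the type I interferon receptor, had 385, 736 and 629 CPM in LPS cells and 43.1, 27.3 and 31.3 CPM in control cells. Nfkbia, which encodes the NF-kB inhibitor I-kappa-B alpha, had 1249.7, 1596 and 1292 CPM in LPS cells and 252, 299 and 334 CPM in control cells. Socs3, a suppressor of cytokine signalling, had 100, 117 and 62.1 CPM in LPS cells and 14.8, 0.197 and 2.19 CPM in control cells.

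All 16 listed interferon targets were higher with LPS in each p27 class, with median log2 differences of 3.96, 4.84 and 4.57, where 11.5%, 11.7% and 9.08% of all genes were higher. Rsad2, an antiviral enzyme, had 2571, 2257 and 2243 CPM in LPS cells and 8.43, 24.9 and 59.4 CPM in control cells. Ifit1, a sensor of foreign RNA, had 982, 1364 and 1035 CPM in LPS cells and 7.55, 6.44 and 28.2 CPM in control cells. Among 21 other chemokines, 7 of 10, 9 of 12 and 10 of 12 with at least 1 CPM were higher in the 3 p27 classes, and 0, 1 and 0 lower, with the same shares over all genes. In Xist cells 7 of 10, 10 of 12 and 10 of 12 were higher and 1, 1 and 0 lower, where 14.6%, 13.5% and 11.9% of all genes were higher and 35.8%, 30.6% and 24.1% lower. In Y cells 5 of 9, 3 of 8 and 2 of 7 were higher and 2, 3 and 1 lower, where 20.7%, 22.2% and 17.9% of all genes were higher and 16.8%, 19.7% and 14.9% lower. Ccl5, an attractant of T cells, came nearest to the level of the cluster with 2363, 2695 and 1523 CPM in LPS cells and 1.57, 0 and 4.95 CPM in control cells. Cxcl2, a neutrophil attractant, had 46.8, 34.9 and 34.6 CPM in LPS cells and no read in control cells.

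The split into Xist and Y cells held for these genes as well. In Xist cells 16 of 16 interferon targets were higher with LPS in each class, with medians of 5.55, 5.57 and 5.92, where 14.6%, 13.5% and 11.9% of all genes were higher. In Y cells 9, 7 and 4 of 16 were higher and 2, 1 and 2 lower, with medians of 1.28, 0.70 and 0.35, where 20.7%, 22.2% and 17.9% of all genes were higher. Irf1 had 3007, 1984 and 2025 CPM in LPS Xist cells and 213, 201 and 119 CPM in control Xist cells. In LPS Y cells it had 233, 127 and 141 CPM, against 231, 225 and 332 CPM in control Y cells, so the Y groups overlapped where the Xist groups did not.

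**Figure D4:**
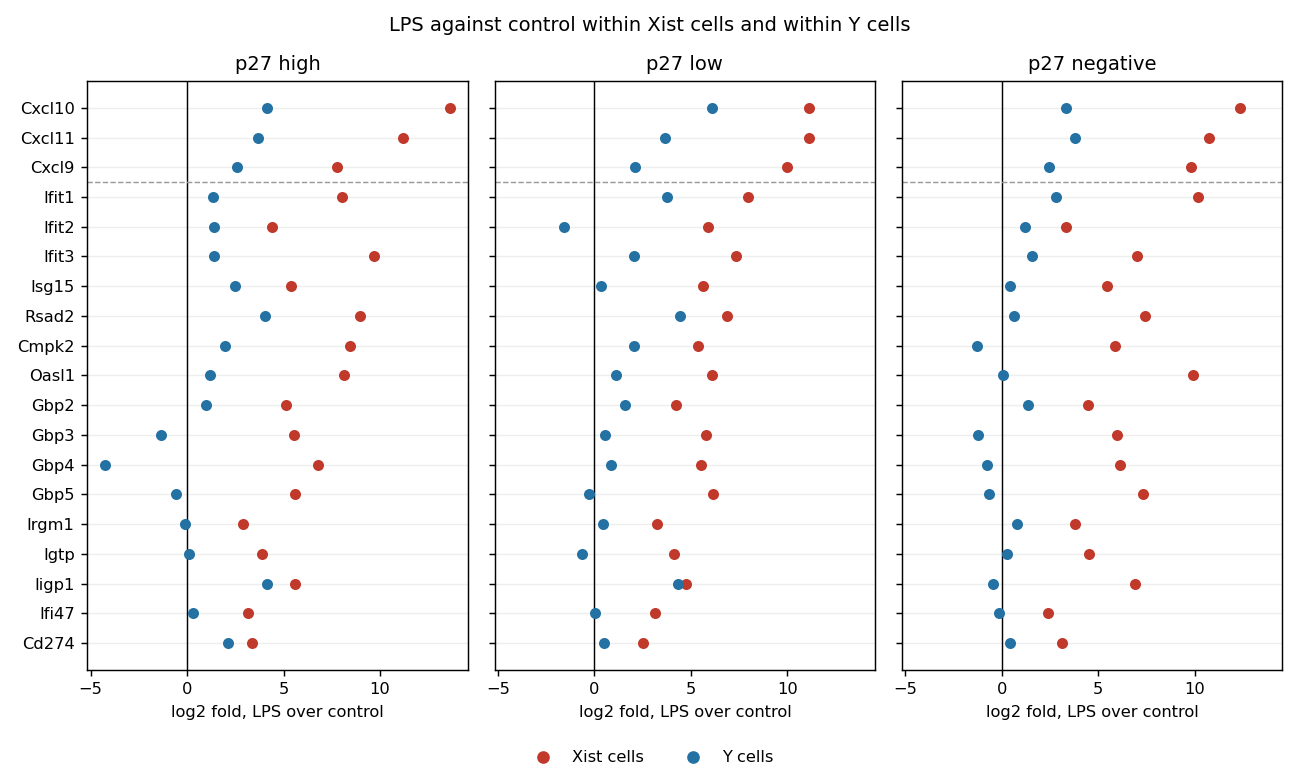
Difference of log2(CPM + 1), LPS over control, of Cxcl10, Cxcl11, Cxcl9 and 16 interferon targets within Xist cells and within Y cells of each p27 class. The Xist points are all above 0 and at 13.65, 11.10 and 12.37 for Cxcl10 in the 3 p27 classes, while the Y points of Cxcl10 are at 4.16, 6.09 and 3.31 and those of several interferon targets lie at or below 0.

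HSC markers differed along the same split, and their part in the result was not tested. In LPS Xist cells Kit, the stem cell factor receptor of the sorting gate, had 56.8, 146 and 79.2 CPM in the 3 p27 classes, against 458, 560.2 and 315 CPM in control Xist cells. Hlf, a transcription factor of HSCs, had 2.17, 14.7 and 4.34 CPM in LPS Xist cells and 261, 151 and 75.1 CPM in control Xist cells. Ly6a had 2591, 1831 and 746 CPM in LPS Xist cells and 298, 116 and 32.5 CPM in control Xist cells. Of the 8 HSC markers 5, 6 and 3 were lower and 1, 1 and 1 higher in LPS Xist cells, with medians of -2.20, -1.88 and -0.64, and all 8 had reads. Over all genes in Xist cells 35.8%, 30.6% and 24.1% were lower, with medians of -0.46, -0.34 and -0.28, so the count in p27 negative cells lay nearest that background. In LPS Y cells 0, 1 and 0 were lower and 0, 0 and 2 higher, where 16.8%, 19.7% and 14.9% of all genes were lower and 20.7%, 22.2% and 17.9% higher. Hlf had 232, 41.9 and 124 CPM in LPS Y cells against 273, 76.7 and 97.1 CPM in control Y cells.

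Among markers of other cells, the summed level was higher in LPS Xist cells of each class for the dendritic list, and lower in each class for the macrophage, endothelial and lymphoid lists; their part in the result was not tested. The 10 macrophage and monocyte markers summed to 451, 381 and 273 CPM in LPS Xist cells and 923, 769.7 and 606 CPM in control Xist cells. Most of that was Lyz2, with 412, 366 and 258 CPM in LPS Xist cells, and Csf1r stood at 0, 0.132 and 2.57 CPM and Ccr2 at 0, 0 and 0.0368 CPM there. The 6 dendritic markers summed to 30.8, 11.8 and 9.78 CPM in LPS Xist cells and 3.02, 0.0463 and 1.46 CPM in control Xist cells, with 2 of 6 read and Itgax and Cd209a at 0 in the LPS cells. Zbtb46 made up most of the LPS sums, with 30.7, 8.95 and 8.71 CPM, against 1.19, 0 and 0.373 CPM in control Xist cells. Clec9a went the other way, from 1.37, 0.0463 and 0.747 CPM in control Xist cells to 0 in LPS Xist cells. The 5 endothelial markers summed to 26.6, 90.9 and 93.2 CPM in LPS Xist cells. In control Xist cells they summed to 181, 127 and 111 CPM, with Cdh5 at 0 in both. The lower sums came mainly from Tie1, with log2 differences of -2.67, -1.18 and -0.35. Kdr went the other way, at 0.17, 1.71 and 0.41. The 5 stromal markers stayed at or below 0.441 CPM in LPS Xist cells and 0.0927 CPM in control Xist cells. The 7 neutrophil markers summed to 12.4, 1.78 and 1.51 CPM in LPS Xist cells and 4.12, 25.2 and 6.38 CPM in control Xist cells. The 7 lymphoid markers summed to 8.42, 56 and 67.9 CPM in LPS Xist cells, with Cd3e and Cd3g at 0. In control Xist cells they summed to 81.4, 139 and 134 CPM. Nearly all of that was Nkg7, with 8.42, 56 and 66.9 CPM in LPS Xist cells and 80.2, 139 and 134 CPM in control Xist cells. In Y cells the lymphoid sums were 89.2, 272 and 199 CPM with LPS. Control Y cells had 36.9, 169 and 228 CPM, so the sum was lower with LPS in p27 negative Y cells alone.

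The receptor of the 3 ligands was nearly unread in these cells. Cxcr3 had 51 reads in 1 control p27 high cell and 3 reads in 1 LPS p27 low cell, and no read elsewhere. Ackr3, an atypical receptor that binds CXCL11, stood at 1.23, 1.30 and 0.898 CPM in LPS cells and 1.57, 1.68 and 0.673 CPM in control cells. Ackr1, an atypical receptor of several chemokines, had 272, 18.4 and 24.7 CPM in LPS cells and 1.01, 6.51 and 8.37 CPM in control cells. At least 5 Ackr1 reads stood in 8 of the 93 LPS p27 high cells, where the level was 782 CPM in Xist cells and 1.73 CPM in Y cells. In p27 low cells Ackr1 was at 33 CPM in LPS Xist cells against 3.43 CPM in control Xist cells, and at 0.895 CPM in LPS Y cells against 20 CPM in control Y cells. Dpp4, a protease that trims these ligands, had 23.6, 15.5 and 19.9 CPM in LPS cells and 52.5, 36.8 and 30.6 CPM in control cells.

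Neighbouring genes differed far less with LPS than the cluster. Art3, on the opposite strand, runs across Cxcl10 and Cxcl11 and shares 133 exon bases with Cxcl10. It had 8.86, 8.10 and 5.32 CPM in LPS cells and 1.43, 0 and 2.19 CPM in control cells, and because the strand setting of the counting is not given its reads and those of Cxcl10 cannot be told apart there. The processed pseudogene Gm2673 overlaps 1582 exon bases of Cxcl11 and had no read in any group, while reads in both genes may have gone to the ambiguous entries. On the Cxcl9 side Sdad1 differed by 1.32, -0.98 and 0.44 and Naaa by -0.51, -2.05 and -0.74 on the log2 scale. On the Cxcl11 side Nup54 differed by 0.03, 0.26 and 0.21 and Scarb2 by 1.09, 0.15 and 1.17. The differences of Art3 were 2.02 and 0.99 in p27 high and negative cells, and in p27 low cells its control had no read.

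**Figure D5:**
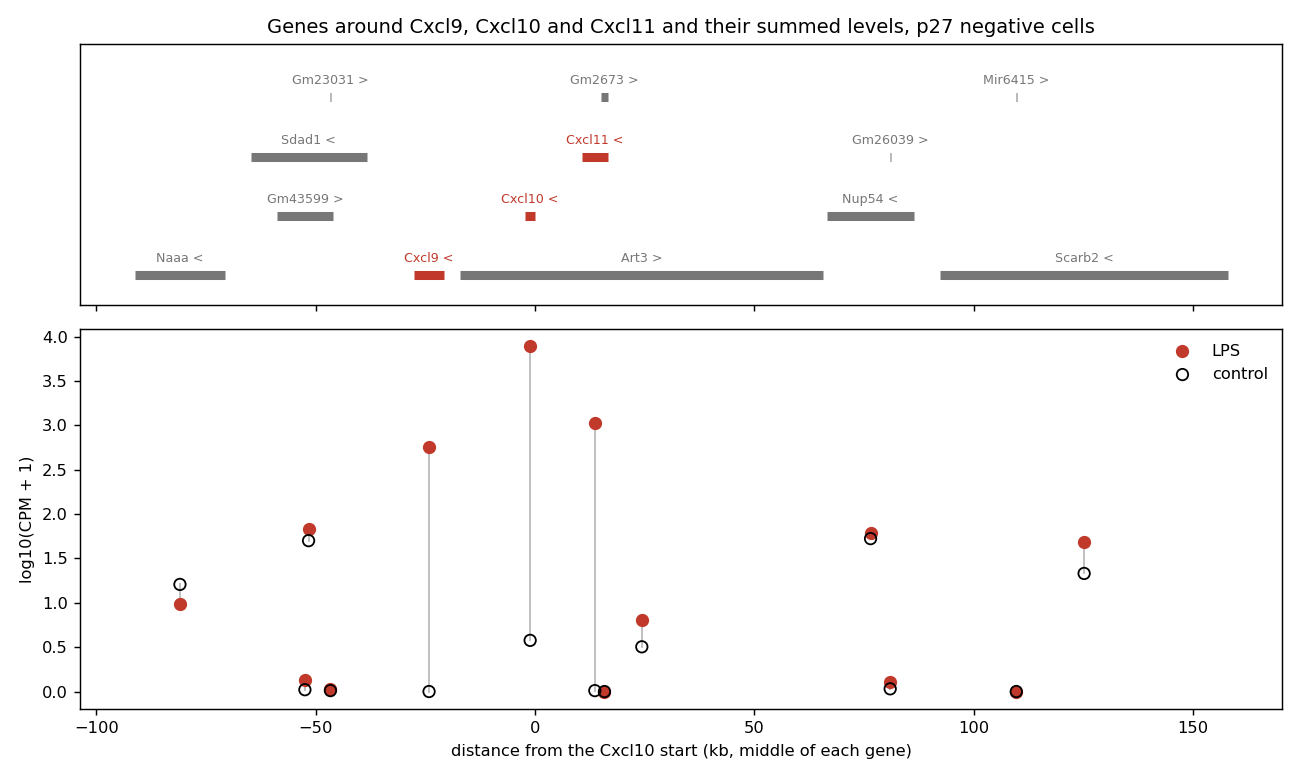
Genes around the cluster (upper panel, arrowheads give the strand) and their summed level in p27 negative cells as log10(CPM + 1) (lower panel) against the distance from the Cxcl10 start in kb, LPS filled and control open. Cxcl9, Cxcl10 and Cxcl11 stand at 564, 7749.9 and 1066 CPM in LPS cells, whereas the flanking genes Nup54 and Scarb2 stand at 59.9 and 47.1 CPM.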

How the data were processed

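The authors deposited raw counts of reads per gene for 576 single-cell libraries made with a full-length Smart-seq2 type protocol, per the labels' protocols. Per the submitters' processing notes GSNAP, HTSeq 0.6.0 and mm10 were used. The annotation release and strand setting were not given in the sources used here. Of all reads 34.1% fell in genes, 2.06% in ERCC spike-ins and 63.8% in entries that name no gene, of which 52.7% were not aligned, 6.86% in no feature and 4.28% ambiguous. Entries that name no gene and spike-ins stayed out of totals. GENCODE M21 named 45143 of 46078 gene IDs. No 2 columns were identical.

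Cells with at least 50000 gene reads were kept, 547 of 576. Each library is 1 cell and no animal is named, so counts were summed per group, given as CPM of gene reads with exact Poisson 95% intervals, and compared without a test as differences of log2(CPM + 1). A group at 0 was set to a floor of 3 counts over the group. A gene was called at a difference of 1 with at least 1 CPM in either group. Shares have exact Clopper-Pearson intervals. Reads carry no molecular identifiers, so intervals cover counting error only. The members, gene lists and tests were chosen with earlier results of these data known.

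Genes named are the members, Cxcr3, Ackr3 and Ackr1, the 4 annotated genes on either side and those overlapping, up to 6 genes of each list with the largest difference in p27 high cells among those with at least 5 CPM, and the 5 genes most like each member. From those, examples are printed. The split into Xist and Y cells was chosen after seeing the data, and so were the marker genes printed beside it. Alternatives were TMM factors (edgeR 4.0.16), spike-in scaling, mean per-cell CPM, a depth of 200000 reads, an added 0.1 CPM, no filter on low genes or 10 CPM, and leaving out the top cell. Scripts used Python 3.11.15, numpy 2.4.6, pandas 2.3.3, scipy 1.17.1 and matplotlib 3.10.9, and were tested on simulated data.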

Additional observations from a re-analysis of the deposited data

Results flagged for a closer look

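The 13 LPS wells left out for depth held 141279 gene reads in all and still had Cxcl10 at 1508 CPM, Cxcl11 at 127 CPM and Cxcl9 at 77.9 CPM. The 16 control wells left out had no Cxcl10 read in 496131 gene reads. These wells entered no comparison, and the signal is given as a value.

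Several differences between p27 classes ran in opposite directions in Xist and Y cells of the LPS groups, on the log2(CPM + 1) scale, and the difference between the cell kinds was not tested. For p27 high against p27 negative cells Cxcl9 differed by -1.86 in Xist cells and 0.26 in Y cells. For p27 high against p27 low cells Cxcl9 differed by -2.07 in Xist cells and 0.25 in Y cells, Cxcl10 by 0.39 and -0.31, and Cxcl11 by 0.29 and -0.04. For p27 low against p27 negative cells Cxcl10 differed by -0.14 in Xist cells and 0.51 in Y cells. The Y cells held few reads of these genes per cell.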

How the results depend on the processing

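No paired analysis was possible because each group is 1 sample and the numbers in the labels count wells. The 9 LPS against control differences stayed above 0 in every alternative run, and sizes below are log2 differences in p27 high, low and negative cells. Gene reads per spike-in read were 25.6, 23.9 and 44.8 in LPS and 9.37, 9.84 and 12.7 in control cells, a shift of every gene. Spike-in scaling gave Cxcl9 7.18, 9.94 and 10.49, Cxcl10 12.22, 11.77 and 12.71, and Cxcl11 10.55, 10.87 and 11.46. The mean of per-cell CPM gave Cxcl9 6.57, 9.46 and 9.06, Cxcl10 10.63, 12.03 and 11.39, and Cxcl11 9.64 and 9.53 (high, negative). Cells of at least 200000 reads gave Cxcl9 6.54, 9.46 and 9.07, Cxcl10 12.33 and 10.43 (high, low), and Cxcl11 9.90 (high). Without the top cell of each group Cxcl9 gave 5.88, 8.96 and 8.64, Cxcl10 12.20, 12.57 and 11.78, and Cxcl11 9.43 and 9.28 (high, negative). An added 0.1 CPM gave Cxcl9 8.73, 11.83 and 11.68, Cxcl10 11.79, 11.04 and 11.40, and Cxcl11 12.10, 12.56 and 13.07. TMM gave Cxcl11 9.88 and 10.13 (high, negative) and Cxcl9 9.46 and 9.14 (low, negative). Xist cells, chosen after seeing the data, gave Cxcl9 7.77, 10 and 9.83, Cxcl10 13.65, 11.10 and 12.37, and Cxcl11 11.20, 11.13 and 10.74. Y cells, chosen likewise, gave Cxcl9 2.60, 2.10 and 2.43, Cxcl10 4.16, 6.09 and 3.31, and Cxcl11 3.66, 3.64 and 3.79.

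For p27 high against p27 negative LPS cells, the order being Cxcl9, Cxcl10, Cxcl11, TMM gave -2.55, -0.51 and -0.11, spike-in scaling -3.28, -1.24 and -0.83, the mean of per-cell CPM -2.40, -0.52 and 0.27, and at least 200000 reads -2.40, -0.35 and 0.09. Without the top cell Cxcl9 gave -2.67 and Cxcl11 0.23. Xist cells gave -1.86, 0.25 and 0.65. Y cells gave 0.26, 0.20 and 0.18, where Cxcl9 turned direction. Causes were not tested. Requiring 10 CPM cut the genes higher with LPS to 790, 818 and 580, against 1678, 1680 and 1302, by fewer genes entering. Of 72 shares of cells 32 moved, and few reads limit every control value.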
